A study of Mus musculus with 8 samples.

Results

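Antiviral interferon-stimulated genes (ISGs) were compared in induced regulatory T cells (iTreg) with and without surface Nrp-1. The members are 52 genes fixed by symbol among the 23361 genes of the deposited expression table, all 52 of which were found, and the GBP, MHC, STAT and IRF families were kept out of the list by its rule. Naive CD4+ T cells (CD44low CD62Lhigh) of wild-type Foxp3-RFP reporter mice on the B6 background, 7 to 8 weeks old, were stimulated with anti-CD3/CD28 microbeads, IL-2 and TGF-β at 2 ng/ml. Both groups therefore carry the red fluorescent Foxp3 reporter and received the same agents. No interferon is named among them. The labels give 3 days of culture in one field and day 5 in another with IL-2 at 50 U/ml, whereas the study's methods give a sort on day 3 and IL-2 at 10 ng/ml. Viable CD4+ Foxp3-RFP+ cells were sorted by surface Nrp-1 (neuropilin-1, a co-receptor for TGF-β and semaphorins) into Nrp-1+ and Nrp-1- iTreg, with 4 libraries of each that are labelled as biological replicates 1 to 4. How many mice and cultures stand behind a library is not given in the sources used here, so p-values measure the spread between these libraries.

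Interferons are cytokines that cells release on viral infection. They bind receptors on the cell surface, JAK kinases then phosphorylate STAT proteins, and a complex of these with IRF9 binds a DNA element called the interferon-stimulated response element (ISRE) in front of ISGs. The products of ISGs detect viral RNA and DNA, degrade it, block viral entry or release, and tune the interferon response itself. T cells hold many of these transcripts at a basal level without infection, and several ISGs, such as the Schlafen and Ifitm genes, are also known for roles in lymphocyte growth.

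Values are FPKM (fragments scaled by transcript length and by the mapped fragments of the library). The 10467 genes with a mean of at least 1 FPKM were compared on the log2(FPKM + 1) scale by limma, with p values adjusted by the Benjamini-Hochberg method over all of them. A gene was called higher or lower at an adjusted p under 0.05, and the added 1 shrinks the fold changes of low genes. Where values are set against each other, those of Nrp-1+ iTreg come first, 4 values are replicates 1 to 4 in order, and single values are means of 4 libraries. Relative sequencing depth, read from the steps of low FPKM values, lay between 0.810 and 1.24 of replicate 1 of Nrp-1+ iTreg. The transcript of the sorted protein followed the labels, with mean Nrp1 levels of 21.5 ± 0.709 FPKM in the Nrp-1+ and 4.95 ± 0.262 FPKM in the Nrp-1- group (SD, n = 4 each, log2 fold change 1.92, adjusted p = 1.35e-07). All 10 T cell and Treg markers were detected. Of these, 3 were higher and 3 lower in Nrp-1+ iTreg, beside 20.9% and 20.0% of all genes tested. Cd4 was not called, at 309 to 319 FPKM in the Nrp-1+ group against 309 to 335 FPKM in the Nrp-1- group (adjusted p = 0.255). Foxp3 was called higher, at 112 to 120.5 FPKM against 107 to 109.9 FPKM (adjusted p = 0.0245). Markers of other cells were scarce. The 5 B cell markers summed to 5.21 to 5.91 FPKM in the Nrp-1+ group and 4.01 to 5.80 FPKM in the Nrp-1- group, nearly all of it Cd79b, with Ms4a1 and Pax5 at 0 in all 8 libraries. The 9 myeloid and dendritic markers summed to 0.521 to 1.02 FPKM and 0.404 to 2.06 FPKM with Clec9a at 0, and the 6 NK and CD8 T cell markers to 8.36 to 9.52 FPKM and 10.1 to 12.1 FPKM, most of it Cd8b1 (lower in Nrp-1+ iTreg, adjusted p = 0.0119), while Cd8a stayed in the range 0.0169 to 0.111 FPKM. The subsets also differed in cell cycle genes. All 25 genes of a proliferation list were higher in Nrp-1+ iTreg, for example Top2a (mean 346 FPKM, against 173 FPKM in the Nrp-1- group) and Mki67 (mean 82.3 FPKM, against 46.3 FPKM), and the part of this difference in the ISG values was not tested.

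Most antiviral ISGs that differed were modestly lower in Nrp-1+ iTreg, whereas the 3 Ifitm genes were far higher. Of the 52 members, 42 passed the filter on low values. Among these 42, 18 were lower and 7 higher in Nrp-1+ iTreg, and 17 did not pass the test. The 18 lower members are 42.9% of those tested, where 20.0% of all genes tested were lower, and the 7 higher members are 16.7%, where 20.9% of all genes were higher. The members were chosen with earlier results of these data known, so these shares describe the list and are no independent test. The median log2 fold change was -0.10 over the 42 members and -0.02 over all genes tested. The groups did not overlap for 23 of the 42 members (54.8%), 16 of them lower and 7 higher, against 39.5% of all genes tested (19.3% lower and 20.2% higher). The exact two-sided permutation p of the mean FPKM was 0.0286 for each of these 23 members, the smallest that 4 libraries against 4 allow. The 18 decreases were small, from -0.10 to -0.38 on the log2 scale, and with the added 1 no member was lower by 0.5 or more, a size that 0.325% of all genes reached. On the same scale Ifitm1, Ifitm2 and Ifitm3 were higher by at least 0.5, as were 5.34% of all genes tested. With 0.1 added in place of 1, Ifit1 (log2 fold change -0.53, adjusted p = 0.0255) and Oas3 (0.57, adjusted p = 0.000399) passed this size too. In these sorted populations, fewer cells with a transcript and less of it per cell cannot be told apart. The summed level of the 52 members was 3287 to 3362 FPKM in the Nrp-1+ group and 3573 to 3660.5 FPKM in the Nrp-1- group. Shisa5 (not called) and Ly6e, with means of 984 and 780 FPKM over the 8 libraries, made up much of it. Summed over all genes other than short RNA genes, the level was 672586 to 691987 FPKM in the Nrp-1+ group and 682821 to 729147 FPKM in the Nrp-1- group.

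Scaling moved the split of calls. Short RNA genes held 1.77% to 38.9% of the summed FPKM in Nrp-1+ libraries and 4.45% to 43.9% in Nrp-1- libraries. With each library corrected for GC content and transcript length, 7 members were higher and 21 lower, beside 1983 higher and 3096 lower of 10467 genes tested, and 39.0% of all called genes were higher in place of 51.1%. With the summed FPKM of genes other than short RNA genes made equal, 8 members were higher and 13 lower, beside 2754 higher and 973 lower of 10475 genes tested, and 73.9% of all called genes were higher. The median log2 fold change was then -0.04 over the members and 0.04 over all genes tested. No called member changed direction under either setting. Of the 25 called members, 16 (6 higher and 10 lower) were called in the same direction under all 21 alternatives in which they were tested. Of the 17 uncalled members, 5 were called under at least 1 alternative (Shisa5, Xaf1, Trim30a, Rtp4 and Trafd1). Calls kept and gained were not counted over all genes, so these counts have no share to be read against.

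**Figure D1:**
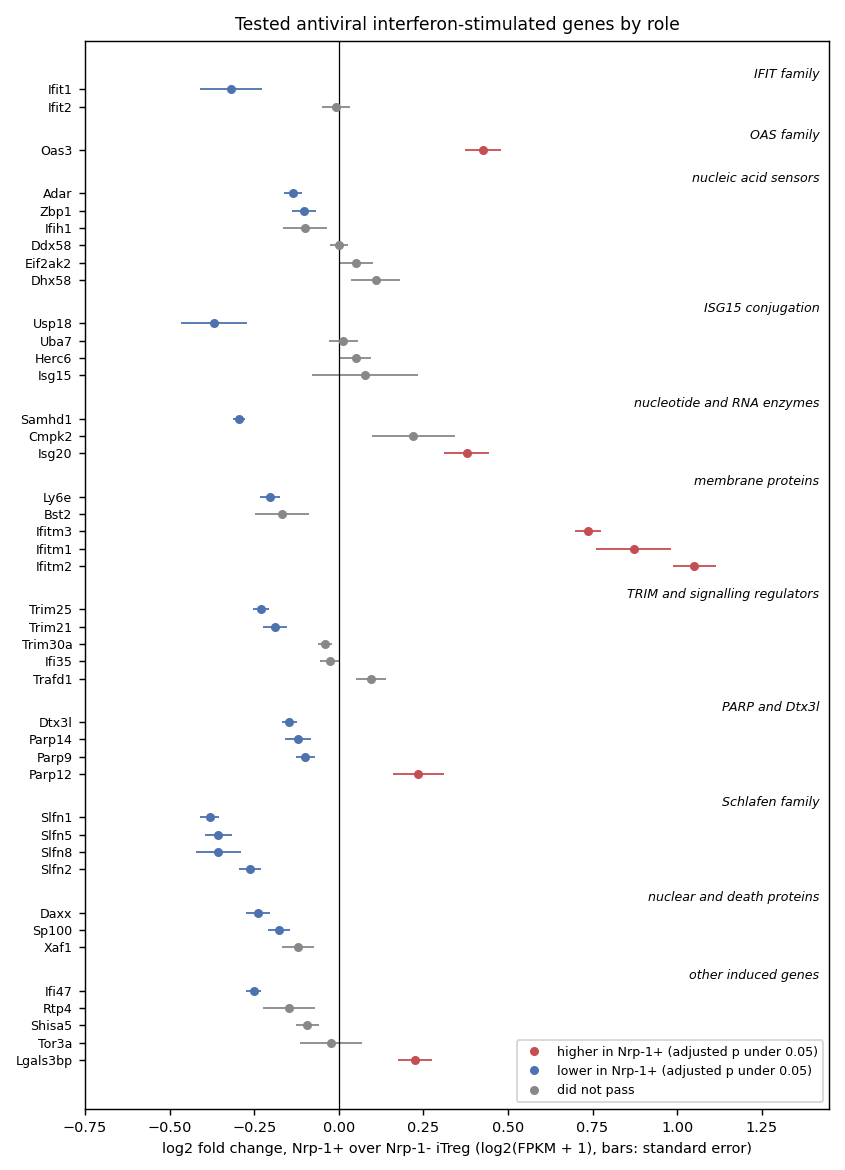
Log2 fold change (Nrp-1+ over Nrp-1- iTreg, on log2(FPKM + 1)) of the 42 tested members on the horizontal axis, grouped by role, with bars for the standard error. The 3 Ifitm genes lie between 0.74 and 1.05, and the 18 lower members between -0.38 and -0.10.

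**Figure D2:**
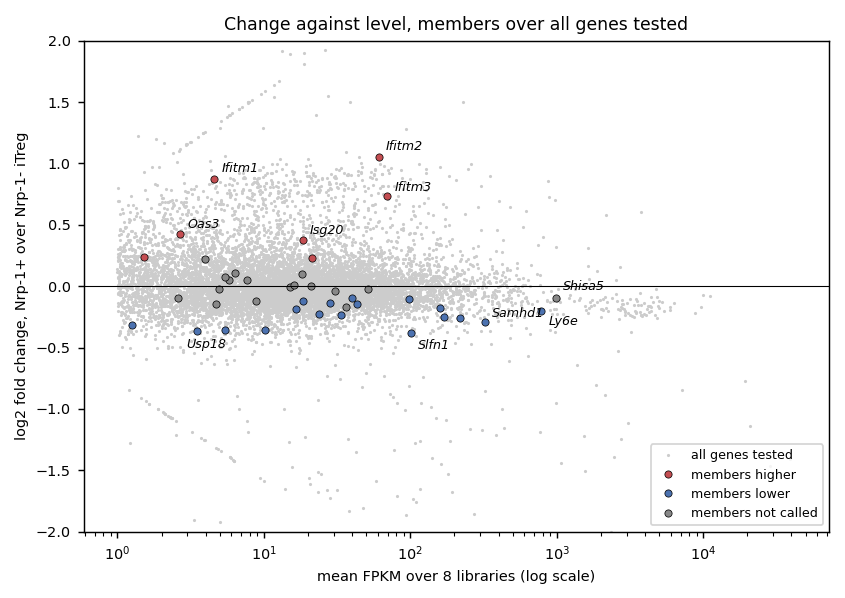
Log2 fold change of each gene tested (grey) and of the 42 tested members (coloured by call) against the mean FPKM over the 8 libraries on a log axis. The members span 1.27 to 984 FPKM, the Ifitm genes stand above the other members, with mean levels of 60.9 FPKM for Ifitm2 and 69.5 FPKM for Ifitm3, and 50 genes lie outside the plotted range.

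To show what the members share in sequence, the 250 bases before the transcription start were searched for the core of the ISRE, which is GAAA, any 2 bases and GAAA again, on both strands. Promoter sequences from RefSeq (GRCm38.p6) matched 41 of the 52 members by symbol, with 58 start sites in all. At least 1 match was held by 12 of the 41 members (29.3%) and by 13 of the 58 windows (22.4%), against 978 of 32851 windows of the same length over all genes (2.98%). A match is a run of letters and no measured binding. The 8 tested members with a match are printed here because they lie on both sides of the comparison, with Oas3 and Ifitm2 higher in Nrp-1+ iTreg, Ifit1, Slfn5 and Slfn8 lower, and Isg15, Bst2 and Trim30a not called. Each is given 5′ to 3′ on the strand of the gene, up to 30 bases on either side of the matches with the matching letters in capitals, and matches on the other strand (Ifit1, Slfn8 and Trim30a) read as the reverse complement.
Ifitm2: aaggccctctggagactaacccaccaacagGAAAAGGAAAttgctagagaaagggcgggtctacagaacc
Oas3: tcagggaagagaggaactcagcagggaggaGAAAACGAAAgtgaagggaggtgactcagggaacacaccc
Ifit1: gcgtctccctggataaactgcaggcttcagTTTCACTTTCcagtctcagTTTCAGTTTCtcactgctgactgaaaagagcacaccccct
Slfn5: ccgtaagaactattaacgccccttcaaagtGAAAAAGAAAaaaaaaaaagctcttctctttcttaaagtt
Slfn8: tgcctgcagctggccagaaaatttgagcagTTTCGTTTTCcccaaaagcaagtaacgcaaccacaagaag
Isg15: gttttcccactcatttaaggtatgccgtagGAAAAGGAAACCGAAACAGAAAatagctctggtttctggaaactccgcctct
Bst2: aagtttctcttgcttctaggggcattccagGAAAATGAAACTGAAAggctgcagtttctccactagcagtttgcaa
Trim30a: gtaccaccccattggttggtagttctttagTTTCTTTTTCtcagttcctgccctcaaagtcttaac
Several genes have more than 1 annotated start, so a stretch before one start can lie within the span of the gene. For each gene the matches before 1 of its starts are printed. In GRCm38.p6 these stretches lie at chr7:140955968-140956037 on the - strand for Ifitm2, chr5:120777695-120777764 on the - strand for Oas3, chr19:34640755-34640843 on the + strand for Ifit1 and chr11:82951917-82951986 on the + strand for Slfn5. The others lie at chr11:83020819-83020888 on the - strand for Slfn8, chr4:156200845-156200926 on the - strand for Isg15, chr8:71537557-71537632 on the - strand for Bst2 and chr7:104465194-104465259 on the - strand for Trim30a. Isg15 holds 3 overlapping copies of the core between positions -78 and -57 before its start, and the stretches of Ifit1 and Bst2 hold 2 copies each. Of the members with a promoter sequence, 2 of 7 higher, 3 of 13 lower and 3 of 14 uncalled members held the core. The core of the gamma-activated site, TTCNNNGAA, which binds STAT dimers and reads the same on both strands, was found in 6 of the 58 windows of members (10.3%) and in 7.02% of all windows. In Bst2 it overlaps the ISRE core.

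Among ISGs that act at membranes, the Ifitm genes were higher and Ly6e lower. The Ifitm proteins sit in plasma and endosomal membranes and block the fusion of enveloped viruses. Their genes lie together on chromosome 7 (Ifitm2 at chr7:140954837-140959686, Ifitm1 at chr7:140967429-140969827 and Ifitm3 at chr7:141009590-141010744). Ifitm2 was at 84.0, 82.8, 81.2 and 81.7 FPKM in replicates 1 to 4 of Nrp-1+ iTreg and at 35.8, 38.3, 45.2 and 38.4 FPKM in those of Nrp-1- iTreg. Every Nrp-1+ library thus held well over the highest Nrp-1- value, and the means were 82.4 ± 1.22 FPKM and 39.4 ± 4.07 FPKM (SD, n = 4 each), an increase of 109% (log2 fold change 1.05, standard error 0.063, adjusted p = 5.84e-06). Ifitm3 was at 89.0, 83.1, 90.2 and 86.2 FPKM in the Nrp-1+ group and at 48.6, 52.8, 53.1 and 53.3 FPKM in the Nrp-1- group, again without overlap, an increase of 67.7% (log2 fold change 0.74, standard error 0.038, adjusted p = 2.61e-06). Ifitm1, the least abundant of the 3, was at 5.32, 5.93, 8.14 and 5.51 FPKM against 2.91, 3.04, 2.73 and 2.94 FPKM. The groups did not overlap although replicate 3 of Nrp-1+ iTreg stood above the other libraries (log2 fold change 0.87, standard error 0.11, adjusted p = 0.000455, an increase of 114%). Over the 20 alternatives in which it was tested, all but the minimum of 5 FPKM, the log2 fold change of Ifitm1 lay between 0.75 and 1.05, and the adjusted p was at most 0.00594. The paralogs Ifitm6 and Ifitm7 were listed at 0 in all 8 libraries. Ly6e, a surface protein with a lipid anchor and the second most abundant member, was at 724, 706, 733 and 737 FPKM in the Nrp-1+ group and at 808, 866, 848 and 819 FPKM in the Nrp-1- group. All Nrp-1+ values were the lower ones, a change of -13.1% (log2 fold change -0.20, standard error 0.029, adjusted p = 0.000867), but the call was lost with quantile normalization (adjusted p = 0.472, log2 fold change -0.18). Ly6a and Ly6c1, other Ly6 genes, were lower as well, with 218 FPKM against 302 FPKM (adjusted p = 7.79e-06) and 52.4 FPKM against 98.7 FPKM (adjusted p = 4.17e-06). Bst2, or tetherin, which holds budding virions at the cell surface, had 31.6 to 37.9 FPKM in Nrp-1+ against 34.7 to 44.0 FPKM in Nrp-1- libraries, and these ranges overlapped (adjusted p = 0.127).

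**Figure D3:**
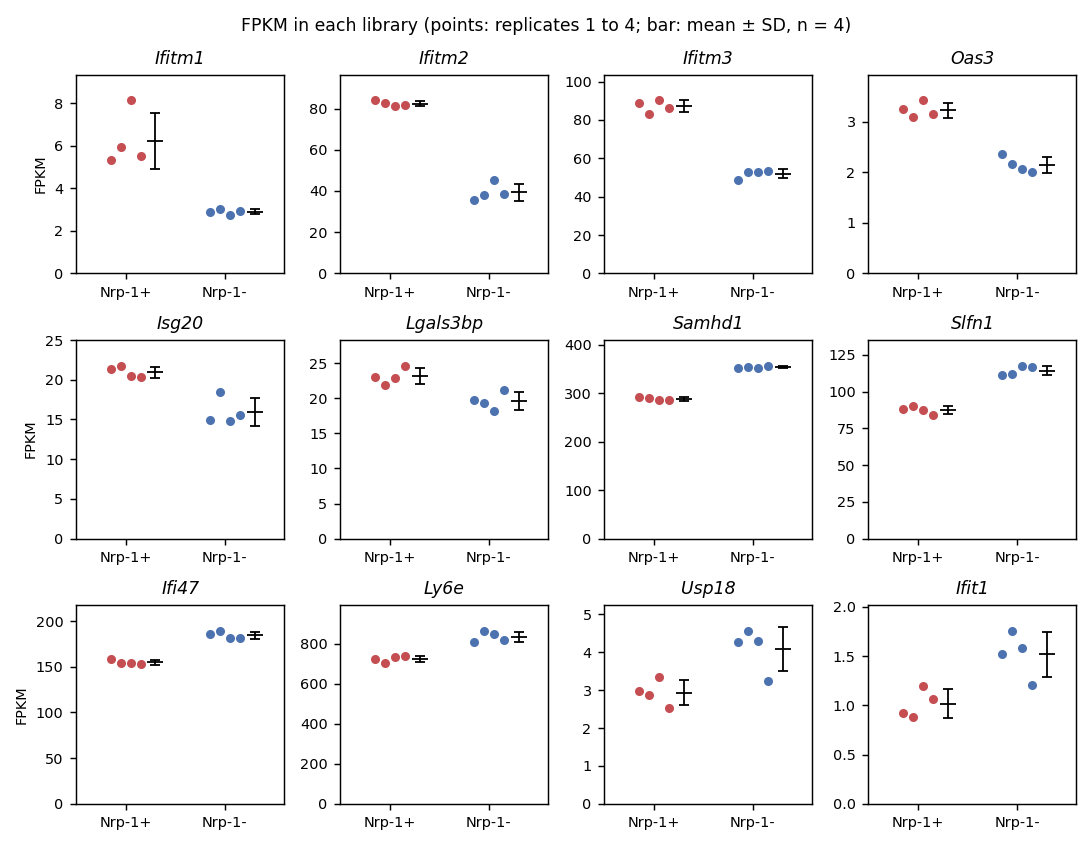
FPKM of 12 members in each library on axes that start at 0, with points for replicates 1 to 4 of each group and bars for the mean ± SD (n = 4). The Ifitm genes, Oas3, Isg20 and Lgals3bp sit higher in Nrp-1+ iTreg and the other 6 lower, and the groups overlap only for Usp18.

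All 4 Schlafen members were lower in Nrp-1+ iTreg. Schlafen genes are strongly induced by type I interferon and are known as regulators of T cell growth, and Slfn2 is needed to keep T cells quiescent. They form a cluster on chromosome 11 (Slfn5 at chr11:82951349-82964850, Slfn8 at chr11:83002125-83020810, Slfn2 at chr11:83065112-83070678 and Slfn1 at chr11:83116820-83122670). Slfn2, the most abundant of them, was at 204, 204, 193 and 188 FPKM in the Nrp-1+ group and at 231, 237, 239 and 240.4 FPKM in the Nrp-1- group, a change of -16.7% (log2 fold change -0.26, standard error 0.031, adjusted p = 0.000324). Slfn1 was at 88.0, 90.1, 87.6 and 84.1 FPKM against 111, 112, 118 and 116 FPKM (log2 fold change -0.38, standard error 0.029, adjusted p = 2.22e-05). In neither gene did the groups overlap. Slfn5 fell from a mean of 6.23 FPKM in the Nrp-1- group to 4.65 FPKM in the Nrp-1+ group (adjusted p = 0.000230) and Slfn8 from 11.5 FPKM to 8.75 FPKM (adjusted p = 0.00332), both without overlap. Other genes of the family, outside the member list, went the other way. Slfn9 was at 5.98, 5.07, 5.06 and 5.56 FPKM in the Nrp-1+ group and 3.81, 3.03, 3.61 and 3.81 FPKM in the Nrp-1- group (log2 fold change 0.49, adjusted p = 0.00104), and Slfn3 at 10.5, 11.4, 9.71 and 9.48 FPKM and 7.82, 7.41, 7.12 and 7.48 FPKM (log2 fold change 0.41, adjusted p = 0.000674). Slfn10-ps did not pass (4.76 FPKM against 3.93 FPKM, adjusted p = 0.0669), and Slfn4 was under the filter. The Schlafen cluster holds close copies, so the division of reads among these genes is uncertain. Of 17 paralogs of members checked for this reason, 9 were tested, 2 were higher (Slfn3 and Slfn9) and 3 lower (Ifit1bl1, Ly6a and Ly6c1). These are 22.2% higher and 33.3% lower, beside 20.9% and 20.0% of all genes tested.

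Among the enzymes that act on nucleotides and RNA, Samhd1 was lower and Isg20 higher. Samhd1 degrades deoxynucleotides and so starves reverse transcription. It was at 292, 289, 286 and 285 FPKM in the Nrp-1+ group and at 353, 354, 351 and 357 FPKM in the Nrp-1- group. Every Nrp-1- value exceeded every Nrp-1+ value, and the change was -18.6% (log2 fold change -0.30, standard error 0.018, adjusted p = 5.95e-06). With quantile normalization the adjusted p was 0.0506 (log2 fold change -0.27). Isg20, an exonuclease that degrades single-stranded RNA, was at 21.3, 21.8, 20.4 and 20.3 FPKM against 14.9, 18.5, 14.8 and 15.6 FPKM. All 4 Nrp-1+ values were above the Nrp-1- values, of which replicate 2 was the highest, and the increase was 31.4% (log2 fold change 0.38, standard error 0.066, adjusted p = 0.00251). Cmpk2, a mitochondrial nucleotide kinase, was at 4.36 FPKM and 3.62 FPKM and did not pass (adjusted p = 0.188). Its neighbour Rsad2, which encodes the antiviral enzyme viperin, ranged from 0.122 to 0.353 FPKM over all libraries.

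Of the 8 IFIT and OAS members 5 were under the filter, and of the other 3 Ifit1 was lower, Oas3 higher and Ifit2 not called. Ifit proteins bind viral RNA that lacks host modifications of its end. Ifit2 was the only abundant one, at 15.6, 16.0, 14.0 and 14.7 FPKM in the Nrp-1+ group and 15.5, 14.9, 14.9 and 15.2 FPKM in the Nrp-1- group, and the groups overlapped (adjusted p = 0.894). Ifit1 was close to the filter, at 0.921, 0.877, 1.20 and 1.07 FPKM against 1.52, 1.76, 1.58 and 1.21 FPKM. The groups did not overlap, but only just (log2 fold change -0.32, standard error 0.091, adjusted p = 0.0235). Its call was lost when replicate 1 or 2 of Nrp-1+ iTreg or replicate 1, 2 or 3 of Nrp-1- iTreg was left out (adjusted p from 0.0519 to 0.0603). Ifit3 fell just under the filter with a mean of 0.9998 FPKM and was at 0.733, 0.838, 0.959 and 0.710 FPKM and 1.32, 1.04, 1.11 and 1.30 FPKM, without overlap between the groups. Ifit1bl1, a close copy of Ifit1 outside the list, was lower too, at 5.16 FPKM against 7.29 FPKM (adjusted p = 0.00299), and reads of such copies may be divided. OAS enzymes sense double-stranded RNA and make the oligoadenylates that activate RNase L. Oas3 alone among the 5 OAS members passed the filter, at 3.25, 3.10, 3.43 and 3.15 FPKM in the Nrp-1+ group and 2.36, 2.16, 2.07 and 2.00 FPKM in the Nrp-1- group. It was higher in Nrp-1+ iTreg without overlap (log2 fold change 0.43, standard error 0.053, adjusted p = 0.000408), an increase of 50.4%. Oas1a, Oas2, Oasl1 and Oasl2 stayed under 0.5 FPKM in every library. Their paralogs Oas1b (3.05 FPKM against 3.58 FPKM, adjusted p = 0.115) and Oas1c (7.27 FPKM against 7.96 FPKM, adjusted p = 0.258) were expressed and did not pass. The Mx GTPases, which trap viral nucleocapsids, were also near 0. Mx1 ranged from 0.0241 to 0.283 FPKM and Mx2 from 0.126 to 0.439 FPKM over all libraries, and the C57BL/6 strain is known to carry a defective Mx1 allele. Ifi44 stayed under 0.1 FPKM. In all, 8 of the 52 members stayed under 0.5 FPKM in every library, among them such strongly inducible ISGs as Mx1, Mx2, Rsad2, Oas2 and Ifi44. Of the 10 members under the filter, Ifit3 was the only one whose groups did not overlap. That share was not counted over all genes under the filter.

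Of 6 sensors of viral nucleic acid, Zbp1 and Adar were lower in Nrp-1+ iTreg and 4 did not pass the test. The lower ones are 33.3% of the sensors, where 20.0% of all genes tested were lower. Zbp1, which senses nucleic acid in the Z form and triggers cell death, was the most abundant sensor, at 97.2, 99.0, 91.1 and 91.5 FPKM in the Nrp-1+ group and 99.8, 105, 103 and 98.8 FPKM in the Nrp-1- group. The groups overlapped slightly, and the call (log2 fold change -0.10, standard error 0.035, adjusted p = 0.0455) was lost when replicate 1, 3 or 4 of Nrp-1+ iTreg or replicate 1, 2 or 3 of Nrp-1- iTreg was left out (adjusted p from 0.0523 to 0.112). Adar, which edits adenosine to inosine in double-stranded RNA, was at 26.0, 27.4, 25.9 and 27.4 FPKM against 30.01, 29.1, 29.2 and 29.4 FPKM, without overlap (log2 fold change -0.14, standard error 0.026, adjusted p = 0.00395). Of its annotated exon bases 16.8% are shared with Chrnb2 on the opposite strand, and the call was lost with equal summed FPKM (adjusted p = 0.181). The helicase sensors and PKR did not pass. Ddx58, which encodes RIG-I, was at 20.9 ± 0.610 FPKM and 20.9 ± 0.337 FPKM (SD, n = 4 each, adjusted p = 0.990), a difference of less than its standard error. Ifih1, which encodes MDA5, was at 2.46 FPKM against 2.70 FPKM (adjusted p = 0.249). Dhx58, which encodes LGP2, was at 6.60 FPKM against 6.05 FPKM (adjusted p = 0.267). Eif2ak2, the kinase PKR that stops translation, was at 5.88 FPKM against 5.65 FPKM (adjusted p = 0.462).

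Of the 4 genes of the ISG15 system, Usp18 passed the test. Isg15 is a ubiquitin-like protein, Uba7 and Herc6 attach it to targets, and Usp18 removes it and also dampens signalling from the type I interferon receptor. Usp18 was at 2.98, 2.88, 3.34 and 2.53 FPKM in the Nrp-1+ group and 4.27, 4.57, 4.30 and 3.23 FPKM in the Nrp-1- group. Replicate 4 of Nrp-1- iTreg lay inside the Nrp-1+ range, and the change was -28.3% (log2 fold change -0.37, standard error 0.098, adjusted p = 0.0177). Uba7, the most abundant of the 4, was at 17.1, 15.1, 16.5 and 16.1 FPKM and 15.8, 15.5, 17.0 and 15.9 FPKM, and its groups overlapped (adjusted p = 0.828). Isg15 itself was at 5.27, 5.16, 5.92 and 5.84 FPKM against 5.55, 6.63, 3.36 and 5.76 FPKM (adjusted p = 0.722). Without replicate 3 of Nrp-1- iTreg, the lowest value, its log2 fold change went from 0.08 to -0.09 (adjusted p = 0.349). Herc6 was at 7.80 FPKM and 7.50 FPKM (adjusted p = 0.416).

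The ubiquitin ligases Trim21 and Trim25 were lower in Nrp-1+ iTreg. Trim25, which modifies RIG-I and other antiviral proteins, was at 21.7, 21.8, 21.6 and 22.5 FPKM against 26.8, 25.6, 25.7 and 25.5 FPKM. The groups did not overlap (log2 fold change -0.23, standard error 0.025, adjusted p = 0.000177). Trim21, a cytosolic antibody receptor, was at 15.4 FPKM against 17.7 FPKM, also without overlap (adjusted p = 0.00328). Ifi35, the most abundant of its role group, was at 51.8, 51.3, 51.6 and 50.4 FPKM and 50.9, 51.6, 51.3 and 55.2 FPKM, with overlap (adjusted p = 0.483). Trim30a (30.2 FPKM against 31.1 FPKM, adjusted p = 0.168) and Trafd1 (18.9 FPKM against 17.6 FPKM, adjusted p = 0.118), both known as brakes on innate signalling, did not pass. Trim30a was called lower with the GC and length correction (adjusted p = 0.0148, and 0.0252 with the replicate block), and Trafd1 higher with equal summed FPKM (0.0465).

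Parp9 and Dtx3l, partners in a complex that adds ADP-ribose and ubiquitin to proteins, were lower, as was Parp14, while Parp12 was higher. Dtx3l was at 41.0, 41.7, 40.0 and 40.5 FPKM in the Nrp-1+ group and 45.8, 45.2, 45.6 and 44.2 FPKM in the Nrp-1- group, without overlap (log2 fold change -0.15, standard error 0.021, adjusted p = 0.000920). Its neighbour Parp9 was at 38.6 FPKM against 41.4 FPKM (adjusted p = 0.0241). Exons of the 2 genes overlap on opposite strands over 458 bases. Parp14 was at 17.7 FPKM against 19.3 FPKM (adjusted p = 0.0324). Parp12, a low transcript, was at 1.77, 1.70, 1.56 and 1.88 FPKM in the Nrp-1+ group and 1.39, 1.18, 1.53 and 1.17 FPKM in the Nrp-1- group. The groups did not overlap, but the margin was slim (log2 fold change 0.24, standard error 0.074, adjusted p = 0.0349). With equal summed FPKM the adjusted p was 0.0873 for Dtx3l, 0.435 for Parp9 and 0.314 for Parp14. Leaving out single libraries ended 3 of these 4 calls. Parp9 was lost without replicate 1, 3 or 4 of Nrp-1+ iTreg or replicate 1 or 4 of Nrp-1- iTreg (adjusted p from 0.0522 to 0.0591). Parp14 was lost without replicate 3 or 4 of Nrp-1+ iTreg or replicate 1, 2 or 4 of Nrp-1- iTreg (0.0616 to 0.0798). Parp12 was lost without replicate 1, 2 or 4 of either subset (0.0524 to 0.0828).

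Of 3 nuclear and cell death genes, Sp100 and Daxx were lower in Nrp-1+ iTreg and Xaf1 was not called. Sp100, which restricts viral genomes in PML nuclear bodies, was at 151, 157, 144 and 147 FPKM against 168, 173, 172 and 164 FPKM, a change of -11.6% (log2 fold change -0.18, standard error 0.031, adjusted p = 0.00266). Daxx, a histone chaperone of the same bodies, was at 29.5, 29.8, 31.0 and 32.3 FPKM against 35.3, 37.7, 36.8 and 35.4 FPKM (log2 fold change -0.24, standard error 0.036, adjusted p = 0.00106). The groups overlapped for neither gene. Xaf1, a partner of the apoptosis inhibitor XIAP, was at 8.39 FPKM and 9.20 FPKM and did not pass (adjusted p = 0.0765). It was called lower with the GC and length correction (adjusted p = 0.0242) and without replicate 3 of Nrp-1+ iTreg (0.0475).

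Of the other induced genes, Ifi47 was lower and Lgals3bp higher. Ifi47, an interferon-inducible GTPase, was at 159, 154, 154 and 153 FPKM in the Nrp-1+ group and 186, 189, 182 and 181 FPKM in the Nrp-1- group. Each Nrp-1- value exceeded each Nrp-1+ value by a wide margin (log2 fold change -0.25, standard error 0.022, adjusted p = 5.79e-05). Its exons share 111 bases (4.49%) with Olfr56 on the same strand. Lgals3bp, a secreted glycoprotein that binds galectins, was at 23.1, 21.9, 22.9 and 24.7 FPKM against 19.8, 19.3, 18.3 and 21.2 FPKM, without overlap (log2 fold change 0.23, standard error 0.05, adjusted p = 0.00778). Shisa5, a membrane protein of the endoplasmic reticulum and the most abundant member of all, was at 916, 919.7, 975 and 1002 FPKM in the Nrp-1+ group and 1006, 1010.1, 1024 and 1023 FPKM in the Nrp-1- group. Its groups did not overlap, but the adjusted p was 0.0563. It was called lower under 5 of the 21 alternatives (adjusted p from 0.00391 to 0.0388), among them the GC and length correction and the fit without replicate 4 of Nrp-1+ iTreg (0.0175). Rtp4 (4.43 FPKM against 4.99 FPKM, adjusted p = 0.158) and Tor3a (4.87 FPKM against 4.99 FPKM, adjusted p = 0.860) did not pass, though Rtp4 was called lower without replicate 4 of Nrp-1+ iTreg (adjusted p = 0.0275). Tdrd7 was under the filter, at 0.531 to 1.07 FPKM over all libraries.

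Of the genes that make or carry the interferon signal, 32 of 56 passed the filter, 13 of these (40.6%) were lower in Nrp-1+ iTreg and 1 was higher, where 20.0% of all genes tested were lower and 20.9% higher. Of 21 interferon genes, 18 were listed at 0 in all 8 libraries, and the other 3 (Ifng, Ifnz and Ifnab) stayed under 1 FPKM. Of 8 tested receptor and kinase genes, 5 were lower and 0 higher in Nrp-1+ iTreg. At an unadjusted p under 0.05 by limma, 0 of these 8 were higher and 6 lower, beside 2533 higher and 2646 lower of 10467 genes tested. In the type I receptor, Ifnar1 was at 32.0, 30.3, 31.3 and 31.8 FPKM against 35.2, 36.6, 34.2 and 35.2 FPKM (log2 fold change -0.17, adjusted p = 0.00184), without overlap, whereas Ifnar2 was at 70.7 FPKM and 71.6 FPKM (adjusted p = 0.651). In the type II receptor, Ifngr1 was at 170.1, 172, 173 and 166 FPKM against 201, 200.1, 205 and 203 FPKM (log2 fold change -0.25, adjusted p = 3.38e-05). Ifngr2 was at 34.8 FPKM and 37.3 FPKM (adjusted p = 0.0397), a call that was lost without replicate 2, 3 or 4 of Nrp-1+ iTreg or replicate 1, 2 or 3 of Nrp-1- iTreg (adjusted p from 0.0750 to 0.0977). The Ifngr2 call was also lost without the filter (0.0534), without the trend (0.0526) and with equal summed FPKM (0.556, log2 fold change -0.04 in place of -0.10). Il10rb, a chain of the type III receptor, was lower (59.4 FPKM against 64.2 FPKM, adjusted p = 0.0266) and is named after its values were seen. Its call was lost with equal summed FPKM (0.230, log2 fold change -0.05 in place of -0.11), with quantile normalization (0.0787) and without replicate 2 or 4 of either subset (0.0584 to 0.0675). Ifnlr1, also of the type III receptor, was under the filter, at 0 to 0.0644 FPKM over all libraries. The kinase Jak1 was lower (178 FPKM against 202 FPKM, adjusted p = 0.000329), a call that was lost with quantile normalization (0.0623), and Tyk2 did not pass (13.5 FPKM against 14.5 FPKM, adjusted p = 0.0518), but was called lower under 8 of the 21 alternatives (adjusted p from 0.0130 to 0.0496), among them the fits without replicate 4 of Nrp-1+ iTreg (0.0440) and without replicate 2 of Nrp-1- iTreg (0.0187).

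Of 8 transcription factors of the pathway, 4 were lower and 4 not called, where 20.0% of all genes tested were lower and 20.9% higher. Irf9, the DNA-binding partner of STAT proteins, was at 53.3 FPKM against 61.3 FPKM (adjusted p = 0.000255). Stat2 did not pass (11.8 ± 0.516 FPKM and 12.1 ± 0.970 FPKM, SD, n = 4 each, adjusted p = 0.771). Irf1, a factor induced by interferon-γ, was at 85.0, 87.4, 88.0 and 85.4 FPKM against 111, 109, 111 and 116 FPKM, a change of -22.6% with no overlap (adjusted p = 1.02e-05). Irf2 was lower (49.8 FPKM against 53.6 FPKM, adjusted p = 0.0275) and is also named after its values were seen. Its call was lost with equal summed FPKM (0.465, log2 fold change -0.04 in place of -0.10) and without replicate 1, 3 or 4 of Nrp-1+ iTreg or replicate 1, 2 or 3 of Nrp-1- iTreg (0.0521 to 0.0708). Irf7, the amplifier of type I interferon production, was at 9.04 FPKM against 9.92 FPKM (adjusted p = 0.0229). Its call was lost without replicate 2 or replicate 4 of Nrp-1- iTreg (adjusted p from 0.0553 to 0.0611), with equal summed FPKM (0.156, log2 fold change -0.06 in place of -0.12) and with the GC and length correction together with the replicate block (0.0626).

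Of 9 tested genes that link nucleic acid sensing to interferon production, 3 were lower (Ikbke, Myd88 and Ticam1) and 1 higher, where 20.0% of all genes tested were lower and 20.9% higher. The higher gene was Mb21d1, which encodes the DNA sensor cGAS and is named here after its values were seen. It was at 6.97, 6.07, 6.34 and 6.79 FPKM in the Nrp-1+ group and 3.86, 3.53, 3.80 and 3.69 FPKM in the Nrp-1- group, an increase of 75.9% (log2 fold change 0.68, standard error 0.048, adjusted p = 1.62e-05). Of 7 negative regulators, 1 (Socs3) was lower (14.3%, under the 20.0% of all genes tested) and none higher, while Socs1 was at 126 FPKM and 115 FPKM (adjusted p = 0.0749). At an unadjusted p under 0.05, 2 of these 7 were higher and 2 lower by limma, beside 2533 higher and 2646 lower of 10467 genes tested. The GBP and IRG GTPases, which are induced above all by interferon-γ, had 12 of 14 tested genes lower and 0 higher (20.0% and 20.9% of all genes tested), with a median log2 fold change of -0.28, beside 18 of 42 and a median of -0.10 in the antiviral members. At an unadjusted p under 0.05, 0 of the 14 were higher and 12 lower by limma, beside the same 2533 and 2646 of 10467 genes tested. The difference between the lists was not tested.

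**Figure D4:**
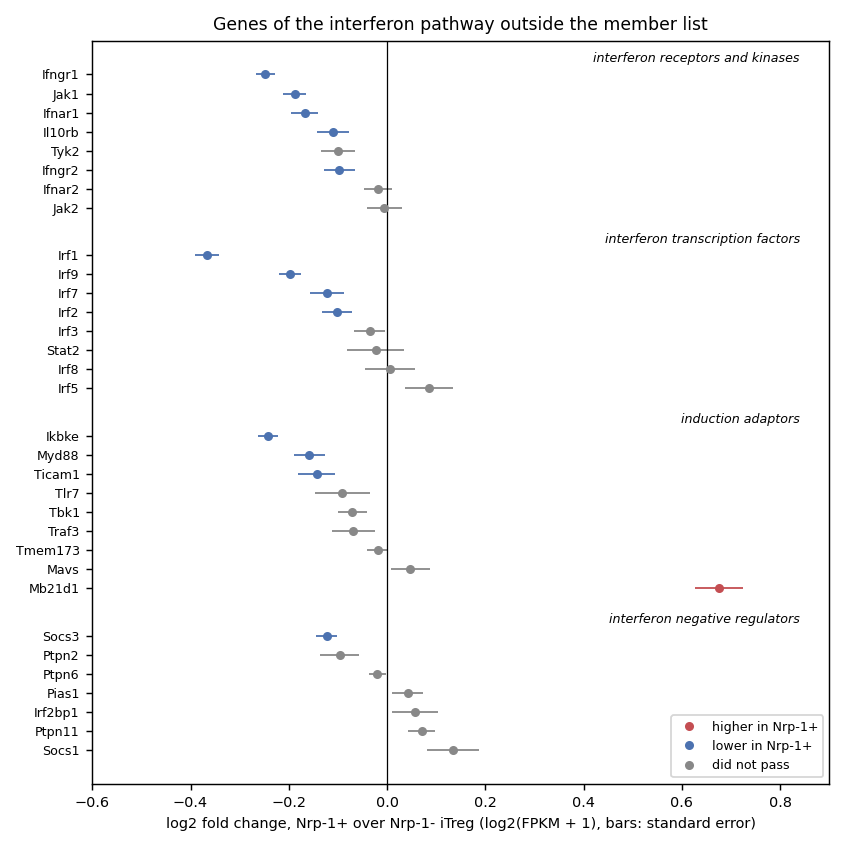
Log2 fold change (Nrp-1+ over Nrp-1- iTreg, on log2(FPKM + 1)) of 32 tested genes of the interferon pathway outside the member list, with bars for the standard error. Of the 32 genes, 13 were lower and 1, Mb21d1, higher.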

How the data were processed

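RNA sequencing covered 4 libraries of each iTreg subset. Group and replicate number were taken from the sample descriptions. Per the study's methods, reads went through the CLC Genomics Workbench 11.0.1 and the authors obtained FPKM from Cufflinks. The deposited table holds 1 such value for each gene symbol in each library. The submitters' processing notes name GRCm38 (mm10). The annotation and the use of strand in counting are not given in the sources used here, and the library kit differs between the methods and the labels. Count models were not applied, since FPKM are no counts, and depth is known only as a ratio between libraries.

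No further scaling was applied to the deposited FPKM. A linear model on log2(FPKM + 1) was fitted to genes whose mean reached 1 FPKM (limma 3.58.1, eBayes with trend, R 4.3.3). P values were adjusted over all genes tested (Benjamini-Hochberg). The study names the Mann-Whitney test, whose exact two-sided form passes only genes whose 4 values do not overlap with the other 4 (p = 0.0286), so that count was given too. The fit was run on simulated data as a check of its code, which is no test of the results above. Exact permutation tests and plots used Python 3.11.15, numpy 2.4.6, pandas 2.3.3 and matplotlib 3.10.9. The members, the role groups and the other lists were chosen with earlier results of these data known. Named with values in every library were members past the test that changed by 0.5 or more, the most changed and the most abundant member of each role group, called members that went against the majority, and a few checks. The main fit did not pair libraries by replicate number. Alternatives were pseudocounts of 0.1 and 0.5, no filter, a minimum of 5 FPKM, size factors, quantile normalization, the replicate block, eBayes without trend, array weights and each library left out. Added after the data were seen were fits without short RNA genes, with equal summed FPKM of other genes, and with a GC and length correction (splines with 5 degrees of freedom, GENCODE M21), without and with the block. Coordinates are those of RefSeq in GRCm38.p6. A gene of the pathway was left out of the lists and is not reported here.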

Additional observations from a re-analysis of the deposited data

Results flagged for a closer look

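In 5 of 130 groups of 4 libraries checked, the highest or lowest library lay far from the other 3, and chance gives about 1 in 20 groups, here 6.5. Nrp-1+ replicate 1 gave 0.439 FPKM for Mx2, while the other replicates of its group gave 0.131 to 0.177 FPKM. Nrp-1- replicate 1 gave 48.6 FPKM for Ifitm3, while the other replicates of its group gave 52.8 to 53.3 FPKM, still far under every Nrp-1+ value. Nrp-1+ replicate 4 gave 22.5 FPKM for Trim25, while the other replicates of its group gave 21.6 to 21.8 FPKM. Nrp-1- replicate 4 gave 55.2 FPKM for Ifi35, while the other replicates of its group gave 50.9 to 51.6 FPKM. Nrp-1+ replicate 2 gave 4.96 FPKM for Slfn5, while the other replicates of its group gave 4.53 to 4.57 FPKM.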

How the results depend on the processing

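Over the 21 alternatives, from 4 to 8 members were higher and from 13 to 21 lower in Nrp-1+ iTreg. The 4 came with a minimum of 5 FPKM, which leaves 33 members and drops Ifitm1, Oas3 and Parp12. The median over members was -0.12 with quantile normalization, -0.040 with equal summed FPKM, -0.13 with the GC and length correction, with or without the replicate block, and from -0.085 to -0.10 with single libraries left out. The pathway genes called higher (1) were 2 without short RNA genes, 3 with equal summed FPKM and from 1 to 2 with single libraries left out, and those called lower (13) were 7 with equal summed FPKM, 10 with the replicate block and 19 with the GC and length correction. With quantile normalization, the adjusted p was 0.0536 for Ifit1, 0.0577 for Zbp1 and 0.103 for Parp12, and 0.0623 for Jak1. Zbp1 also missed the threshold without the filter (0.0640), without the trend (0.0606) and with equal summed FPKM (0.435). With the replicate block 6 members were higher and 15 lower, and Ifit1 (adjusted p = 0.0670), Zbp1 (0.0514), Parp9 (0.0824) and Parp12 (0.0995) were lost, as were Ifngr2 (0.0669), Irf7 (0.0817) and Il10rb (0.0883). Whether same-numbered libraries came from the same culture is not given in the sources used here. Their deviations correlated at -0.26 on average over all genes and at -0.07 without short RNA genes, which cannot settle it. No called member changed sign. Signs turned only in genes that did not pass in either fit. With equal summed FPKM the log2 fold change was 0.050 for Ifit2, 0.059 for Ddx58, 0.020 for Trim30a, 0.035 for Ifi35, 0.029 for Tor3a, 0.044 for Ifnar2 and 0.034 for Stat2. Uba7 was at -0.0014 with quantile normalization and at -0.011 with the GC and length correction, with or without the replicate block. With single libraries left out, Ifit2 ran from -0.036 to 0.024, Ddx58 from -0.014 to 0.018, Isg15 from -0.090 to 0.18, Uba7 from -0.011 to 0.044, Tor3a from -0.091 to 0.030 and Stat2 from -0.077 to 0.0073. The cause was not tested. Depth is known only as a ratio, so low genes such as Ifit1 have no counting interval.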

Other observations

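The genes beside the Ifitm cluster on chromosome 7, chosen after the values of the cluster were seen, did not share the size of its increase. On one side the nearest tested genes were Psmd13 (83.6 FPKM against 77.6 FPKM, log2 fold change 0.11, adjusted p = 0.0589), a proteasome subunit, and Sirt3 (adjusted p = 0.612), a mitochondrial deacetylase. On the other side, Pkp3, a desmosome protein, was higher in Nrp-1+ iTreg (41.2 FPKM against 36.6 FPKM, log2 fold change 0.17, adjusted p = 0.00198) and Sigirr, an inhibitory receptor of the IL-1 receptor family, was lower (44.7 FPKM against 51.5 FPKM, log2 fold change -0.20, adjusted p = 0.000673). Further out, Bet1l was lower (12.9 FPKM against 15.2 FPKM, log2 fold change -0.23, adjusted p = 0.00767) and Ptdss2 and Rnh1 did not pass (adjusted p = 0.873 and 0.513).

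Among the Treg markers used as a check, Il2ra had a mean of 266 FPKM in the Nrp-1+ and 228 FPKM in the Nrp-1- group (adjusted p = 0.000108), and Ikzf2, which encodes Helios, one of 2.56 FPKM and 1.86 FPKM (adjusted p = 0.000853), both higher in Nrp-1+ iTreg, while Ctla4 was lower (144 FPKM against 160.0 FPKM, adjusted p = 0.000938).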
